A study of Mus musculus with 24 samples.

Results

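Killer cell lectin-like receptors are membrane proteins by which natural killer (NK) cells and some T cells sense other cells. The 10 genes described here are 8 of this family (Klrg1, Klrd1, Klrc1, Klrc2, Klrk1, Klrb1b, Klrb1c and Klre1), the NK receptor gene Ncr1 and the signalling adaptor gene Tyrobp. They were taken by symbol, and all were found among the 34113 genes of the count table. RNA 3′ ends were counted in T cells that a T cell kit had isolated from spleens of C57BL/6N mice, in libraries labelled CD4 or CD8 by co-receptor. The mice were either Atmwt/wt (wild type, WT) or Atm-/- (knockout, KO), and had either no transplant (control) or a transplant of B-cell lymphoma. ATM is the kinase that raises the alarm at DNA double-strand breaks. Each of the 8 combinations had 3 libraries, 24 in all, drawn from 12 pools of 22 mice. CD4 and CD8 libraries with the same genotype, condition and number came from the same mice. The libraries of WT mice with lymphoma held 1 mouse each, both WT control 1 libraries a pool of 3, and the others pools of 2. The knockout allele, the age and sex of the mice, the lymphoma line, the time since transplantation and the way CD4 and CD8 cells were separated are not given in the sources used here.

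Klrd1 encodes CD94, which pairs with NKG2A (Klrc1) to form an inhibitory receptor and with NKG2C (Klrc2) to form an activating one, both of which read the class I-like molecule Qa-1 on other cells. NKG2D (Klrk1) binds stress-induced ligands and signals through the adaptors DAP10 (Hcst) and DAP12 (Tyrobp). The NKR-P1 receptors Klrb1b and Klrb1c are inhibitory and activating respectively, and the protein of Klrb1c is NK1.1, the classical NK cell marker of C57BL/6 mice. KLRG1 is an inhibitory receptor for cadherins that is known from short-lived effector T cells and mature NK cells. Memory CD8 T cells can carry several of these receptors, whereas NKp46 (Ncr1) is mainly known from NK cells and innate lymphoid cells.

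Of the 10 genes, 7 lie in 1 stretch of 900.5 kb on chromosome 6 (GRCm38, GENCODE M21, 128778485 to 129678973), which belongs to the NK gene complex. Klre1, Klrd1, Klrk1, Klrc2 and Klrc1 fill 101.1 kb of it (129577905 to 129678973). Klrg1 lies on the same chromosome at 122270596 to 122282882, 6495.6 kb from Klrb1c. Ncr1 (4337724 to 4345164) and Tyrobp (30413760 to 30417585) are on chromosome 7. The libraries hold tags from transcript 3′ ends, so similar ends matter for counting. Among the windows of 31 bases in the last 500 bases of the annotated transcripts, 57.65% of those of Klrc1 and 21.35% of those of Klrc2 also occur in another gene, mainly in each other and in Klrc3. For Klrb1b and Klrb1c the shares were 27.69% and 22.07%, most often with Gm44511 and also with Klrb1a and each other. For the other 6 genes they were 0%. How counts were divided within the Klrc1 and Klrc2 pair and within the Klrb1b and Klrb1c pair is therefore uncertain.

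Promoters are shown for 4 genes, 3 of the chromosome 6 stretch and Ncr1 from another chromosome, to set their sequences side by side. Other members whose levels moved with these, such as Klrb1c and Klre1, have promoters that are not shown. RefSeq (GRCm38.p6) gave promoters, 250 bases before to 50 after a start, for 7 of the 10 genes. Capitals mark TGTGGT, a core of sites for Runx factors, or TCACAC, a core of T-box sites, on either strand, so that ACCACA and GTGTGA are the same motifs read on the opposite strand.
Klrc1, chr6:129678924-129679223, minus strand: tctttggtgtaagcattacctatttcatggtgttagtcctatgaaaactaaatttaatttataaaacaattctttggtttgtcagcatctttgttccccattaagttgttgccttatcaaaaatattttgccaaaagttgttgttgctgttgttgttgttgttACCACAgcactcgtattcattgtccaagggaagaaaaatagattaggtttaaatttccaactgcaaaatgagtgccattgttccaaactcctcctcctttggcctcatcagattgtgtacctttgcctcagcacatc
Klrc2, chr6:129660547-129660846, minus strand: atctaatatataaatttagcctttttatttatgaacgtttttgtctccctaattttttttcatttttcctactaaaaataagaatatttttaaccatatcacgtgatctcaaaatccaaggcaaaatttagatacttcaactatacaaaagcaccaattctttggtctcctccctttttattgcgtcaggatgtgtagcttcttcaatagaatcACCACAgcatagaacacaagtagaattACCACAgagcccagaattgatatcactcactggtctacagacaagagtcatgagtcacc
Klrk1, chr6:129623815-129624114, minus strand: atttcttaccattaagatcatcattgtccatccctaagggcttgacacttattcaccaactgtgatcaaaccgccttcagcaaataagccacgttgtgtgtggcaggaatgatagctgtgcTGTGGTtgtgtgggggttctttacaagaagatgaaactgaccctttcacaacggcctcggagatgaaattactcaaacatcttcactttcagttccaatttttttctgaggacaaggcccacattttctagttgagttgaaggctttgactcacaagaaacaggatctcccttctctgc
Ncr1, chr7:4337465-4337764, plus strand: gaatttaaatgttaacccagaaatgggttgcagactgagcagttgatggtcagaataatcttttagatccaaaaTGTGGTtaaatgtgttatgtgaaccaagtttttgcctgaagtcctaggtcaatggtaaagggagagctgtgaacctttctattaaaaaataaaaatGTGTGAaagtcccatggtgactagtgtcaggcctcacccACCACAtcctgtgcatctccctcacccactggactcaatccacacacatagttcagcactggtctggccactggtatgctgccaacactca
The 7 genes had 11 promoters, and where a gene had 2 they overlap each other in part. The Runx core occurred in 8 of the 11 (6 of the 7 genes), and in 16.8% of all 32851 promoters of this length. All 4 promoters shown hold it, and those of Klrb1b, not shown, do not. The T-box core occurred in 4 of the 11 (Klre1 and Ncr1) and in 14.5% of all promoters. A further motif, AGGAAG, a core of ETS sites, occurred in 4 of the 11 (3 genes) and in 35.4% of all promoters. The 3 motifs did not overlap one another in these promoters, and a match is a description of these letters only.

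Total counts ran from 6470482 to 10196062 per library, and 15263 to 17707 genes had a count. Levels are given as CPM, a gene's count scaled to the library's total, and are not compared between genes. Atm lay at 26.9 to 107 CPM in KO and at 117 to 210 in WT libraries, with no overlap. Whether its 3′ tags lie in the disrupted part of the gene is unknown, so this checks the labels only in part. Cd4 was at 71.1 to 134 CPM in CD4 and at 1.45 to 7.94 in CD8 libraries, and Cd8a at 142 to 534 in CD8 and 2.84 to 22.5 in CD4 libraries. All 12 pan-T cell markers had counts in every group. WT control 1, a pool of 3 mice, had the lowest level of the 3 WT controls for 10 of the 10 genes in CD4 and for 10 of 10 in CD8 libraries. It was also the lowest WT control in the summed markers of NK cells, myeloid cells and B cells in both. CD8 KO lymphoma 1 had the highest summed B cell markers (1190 CPM) and myeloid markers (5560 CPM) of all libraries, and the lowest Cd8a of the CD8 libraries. P-values measure the spread between such libraries, which are single mice in WT lymphoma and pools elsewhere, with a common spread for all groups. In the main fit of CD8 against CD4, libraries of the same mice were treated as independent.

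**Figure D1:**
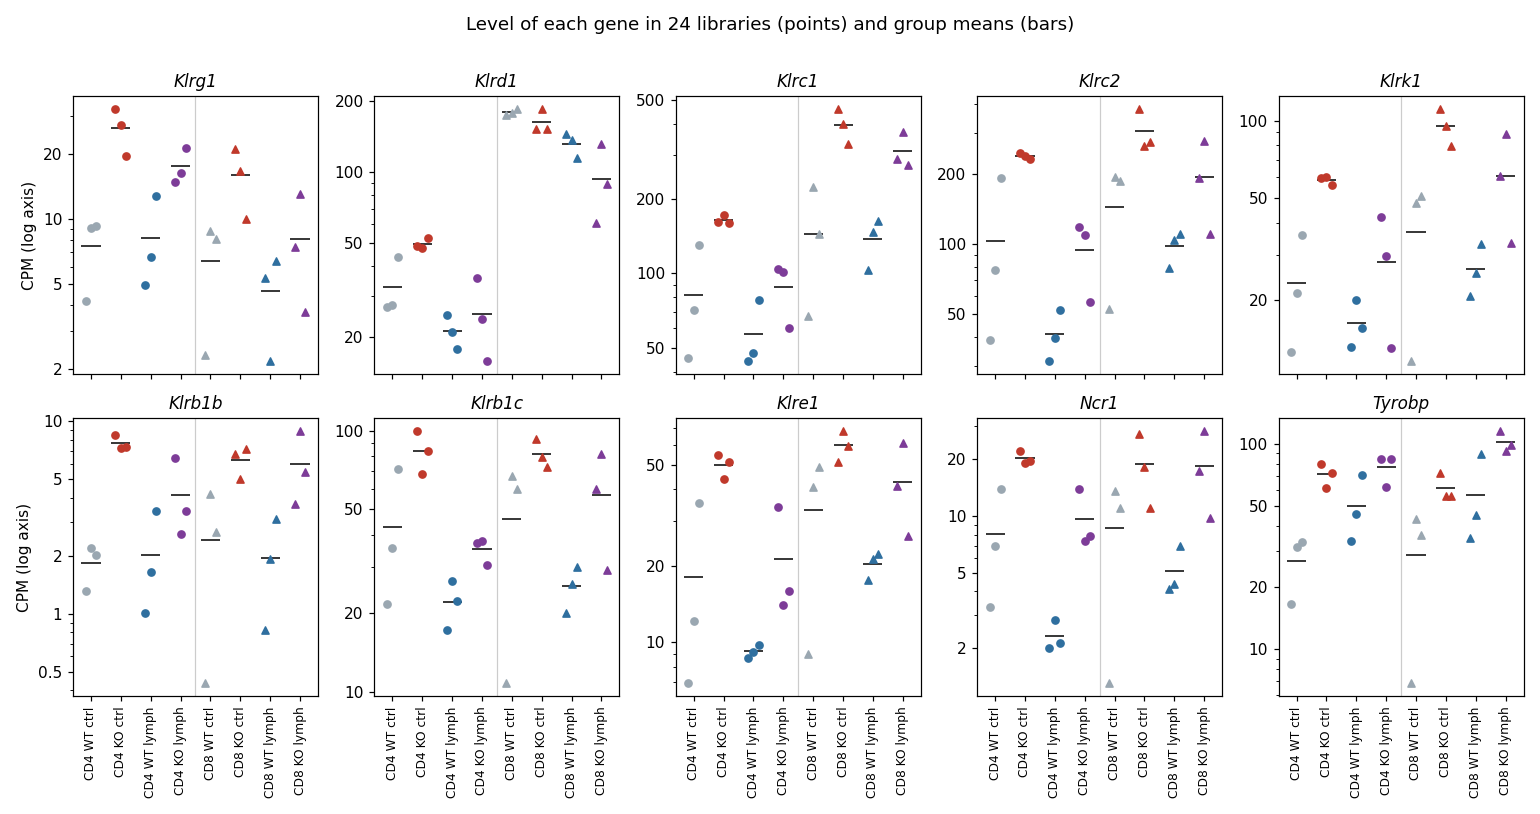
CPM of the 10 genes (panels, log axis) in the 3 libraries (points) of each group, with group means as bars, circles for CD4 and triangles for CD8 libraries. KO controls have the highest CD4 mean for 9 genes, Klrd1 separates CD8 from CD4 libraries, and the first CD8 WT control library is the lowest of its group in every panel.

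In mice without a transplant, 3 of the 10 genes rose in CD4 libraries of Atm-/- mice: Klrb1b 3.96-fold, Klrg1 3.37-fold and Tyrobp 2.50-fold. Among all 12808 genes tested 2.01% passed (257 genes, edgeR quasi-likelihood test with Benjamini-Hochberg adjusted p under 0.05). For 9 of the 10 genes every KO library was above every WT library, a lack of overlap that 32.7% of all genes tested had in either direction. The median log2 fold change of the 10 genes was 1.29, against -0.01 over all genes. In bulk RNA a larger share of cells that carry a transcript and more of it per cell cannot be told apart. The whole comparison depended on single libraries: without WT control 1, without WT control 2 or without any 1 of the 3 KO controls no gene of the 10 passed, and without WT control 3 there were 5, Klrg1, Klrc2, Klrb1c, Klre1 and Ncr1. Over all genes these fits called 0 to 366. With all 24 libraries in 1 fit none of the 10 passed, while DESeq2 called 6 and limma voom 9. Over all genes these called 285, 789 and 1480.

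Klrg1 stood at 4.17, 9.13 and 9.27 in the CD4 WT control, 32.5, 27.5 and 19.7 in the KO control, 4.93, 6.68 and 12.8 in the WT lymphoma and 14.9, 16.3 and 21.5 in the KO lymphoma libraries. Each KO group lay above the WT group of its condition without overlap, and KO controls had the highest mean. In controls the log2 fold change was 1.75 ± 0.37 (SE, adjusted p = 0.0399 by edgeR). Klrb1b, the inhibitory NKR-P1 receptor, stood at 1.32, 2.2 and 2.01 in the CD4 WT control, 8.46, 7.29 and 7.36 in the KO control, 1.01, 1.64 and 3.41 in the WT lymphoma and 6.41, 2.6 and 3.41 in the KO lymphoma libraries. Its KO controls lay above all other CD4 groups, at 1.99 ± 0.44 over WT controls (adjusted p = 0.0425 by edgeR). Counted together with its neighbour Klrb1c, with which it shares 3′ sequence, the pair differed by 0.98 ± 0.32 (adjusted p = 0.139 by edgeR), a choice made after the values were seen. Most counts of the pair were those of Klrb1c, with means of 43 CPM in WT and 83.8 in KO controls, against 1.84 and 7.7 for Klrb1b. The sum therefore cannot tell whether the rise of Klrb1b depends on how shared reads were divided. Tyrobp, the adaptor that many activating receptors of NK and myeloid cells need, stood at 16.6, 31.4 and 33.2 in the CD4 WT control, 80.3, 61.3 and 72.2 in the KO control, 33.6, 45.5 and 70.5 in the WT lymphoma and 84.1, 61.6 and 84.8 in the KO lymphoma libraries. Its KO controls did not overlap the WT controls (1.32 ± 0.29, adjusted p = 0.0412 by edgeR), while the lymphoma groups overlapped.

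Of the CD94 family, Klrd1 stood at 26.7, 27.3 and 43.6 in the CD4 WT control, 48.5, 47.7 and 52.7 in the KO control, 24.9, 21.1 and 17.9 in the WT lymphoma and 35.5, 23.8 and 15.8 in the KO lymphoma libraries. Its KO controls lay just above the WT controls, and the interval of that difference ran from -0.01 to 1.12 on the log2 scale (0.55 ± 0.26, adjusted p = 0.286 by edgeR). Klrc1 stood at 45.6, 71.1 and 130 in the CD4 WT control, 162, 173 and 160 in the KO control, 44.2, 47.7 and 78.5 in the WT lymphoma and 104, 101 and 60.2 in the KO lymphoma libraries. The KO controls were tightly grouped, whereas the WT controls spread from 45.6 to 130 CPM with WT control 3 highest (0.95 ± 0.35, adjusted p = 0.184 by edgeR). Klrc2 stood at 38.8, 77.3 and 193 in the CD4 WT control, 247, 239 and 232 in the KO control, 31.5, 39.7 and 52.1 in the WT lymphoma and 119, 109 and 56.7 in the KO lymphoma libraries. The fold change was 1.17 ± 0.47 in controls (adjusted p = 0.217 by edgeR), and WT control 3 came closest to the KO controls.

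Klrk1 (NKG2D) stood at 12.5, 21.2 and 35.9 in the CD4 WT control, 59.6, 60.2 and 55.8 in the KO control, 13.1, 20 and 15.5 in the WT lymphoma and 41.9, 29.6 and 13 in the KO lymphoma libraries. KO controls were the highest group, with a log2 fold change of 1.29 ± 0.41 over WT controls (adjusted p = 0.13 by edgeR). Klre1, a receptor chain that pairs with members of the Klri family, was at 6.92, 12.1 and 35.4 in the CD4 WT control, 54.7, 44.1 and 51.4 in the KO control, 8.72, 9.15 and 9.79 in the WT lymphoma and 34, 14.1 and 15.9 in the KO lymphoma libraries. The WT lymphoma libraries were low and close together, and the KO controls lay above every other CD4 group (1.44 ± 0.48 over WT controls, adjusted p = 0.146 by edgeR). Ncr1 was at 3.3, 6.94 and 13.9 in the CD4 WT control, 22.2, 19 and 19.7 in the KO control, 2.02, 2.81 and 2.13 in the WT lymphoma and 13.9, 7.41 and 7.83 in the KO lymphoma libraries. The lowest CD4 levels of Ncr1 were the 3 WT lymphoma libraries and the highest the 3 KO controls (1.30 ± 0.39 over WT controls, adjusted p = 0.11 by edgeR). Klrb1c (NK1.1) was at 21.7, 35.7 and 71.4 in the CD4 WT control, 100, 68 and 83.3 in the KO control, 17.2, 26.7 and 22.3 in the WT lymphoma and 37.3, 37.8 and 30.7 in the KO lymphoma libraries, and WT control 3 reached into the KO control range (0.92 ± 0.33, adjusted p = 0.176 by edgeR).

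Markers of other cells moved in the same comparison. Of 16 NK cell markers 4 rose in CD4 KO controls, among them Fcgr3 (1.12 ± 0.23), Eomes (1.10 ± 0.22) and Il2rb (0.99 ± 0.20), and none fell, with a median of 1.13. In fits without 1 library each of these lost its call in 5 of 6. The list shares Eomes, Gzma, Il2rb and Prf1 with T cell effector genes. The 16 summed to 618 to 996 CPM in WT and 1370 to 1500 in KO controls, and none was at 0. Il2rb, which T cells also express, was the largest part of the sum in KO controls, at 516 to 645 CPM. Txk went the other way, with 241, 224 and 215 CPM in WT and 149, 157 and 155 in KO controls. Car2 varied within groups, with 24, 165 and 70.6 CPM in KO controls. Without these 3, a choice made after the values were seen, the other 13 ran from 125 to 377 in WT and from 546 to 687 CPM in KO controls. Of 16 myeloid markers 4 rose, with summed levels of 548 to 902 in WT and 1320 to 1600 CPM in KO controls. These 4 lost their calls in 4 or 5 of 6 fits without 1 library. Of 12 B cell markers none passed, with sums of 43.9 to 496 and 532 to 687 CPM. Of 10 gamma-delta and innate-like T cell markers 8 were tested and none passed, with sums of 19.3 to 31.2 and 38 to 44.1 CPM. Of 20 effector and memory genes 9 rose, led by Tbx21 (1.42 ± 0.23), Cd44 (0.99 ± 0.19) and Gzmb (1.92 ± 0.39), with a median of 1.10, and these 3 lost their calls in 4 or 5 of 6 fits without 1 library. Pan-T markers were lower, with sums of 3700 to 4280 CPM in WT and 3200 to 3610 in KO controls, and 1 of 12, Trbc1, fell by 1.18 on the log2 scale (adjusted p = 0.0312 by edgeR), a call lost in 5 of 6 fits without 1 library. The summed Y-linked genes ran from 68.1 to 189 CPM in WT and 1.25 to 57.7 in KO controls, without overlap. With a score of these genes as a covariate Klrg1, Klrb1b and Tyrobp passed again, and over all genes 484 did, against 257 without it. Since the Y-linked genes differ with genotype in these libraries, that fit cannot separate them from genotype. The part of other cells in the rise of Klrg1, Klrb1b and Tyrobp was not tested.

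**Figure D2:**
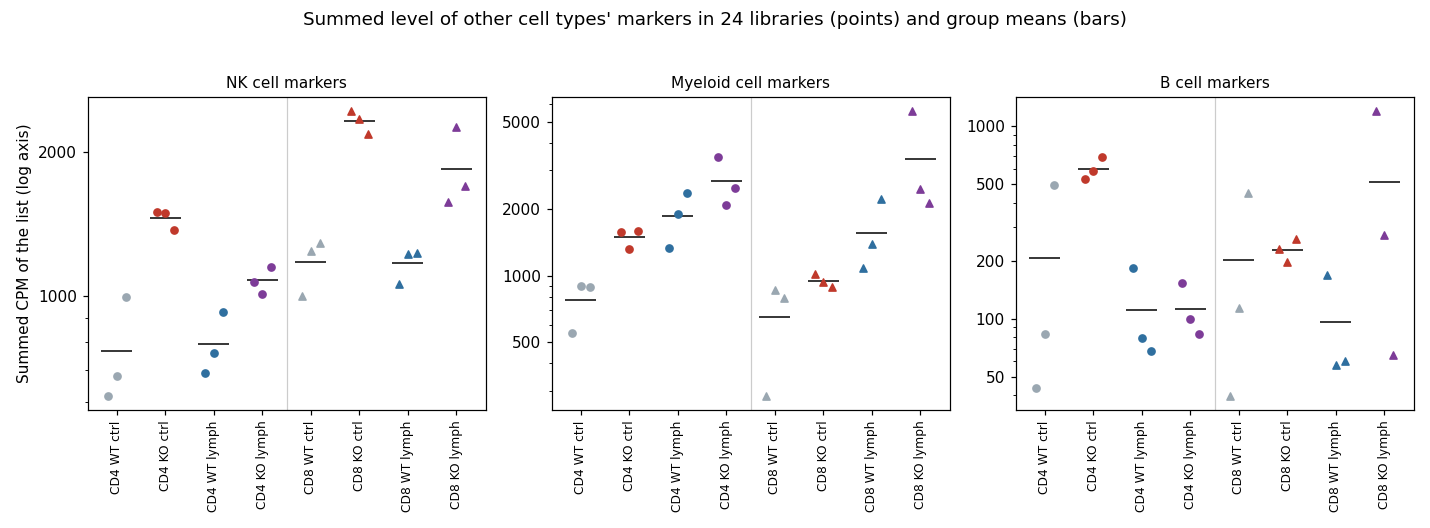
Summed CPM (log axis) of 16 NK cell, 16 myeloid and 12 B cell markers in the 3 libraries (points) of each group, with group means as bars. KO groups lie above WT groups of the same co-receptor and condition in the NK sum, with 1010 CPM in the lowest CD4 KO lymphoma library against 923 in the highest CD4 WT lymphoma library.

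In CD8 libraries of controls none of the 10 genes passed in KO against WT (edgeR), where 0.522% of 12650 genes did. Of the 10, 5 had an unadjusted p under 0.05, as had 1861 of the 12650. DESeq2 called 2 (375 over all genes) and limma voom 1 (365). Every KO library was above every WT library for 8 genes (24.7% of all genes, either direction), and the median was 1.11. Klrc1 stood at 67.1, 224 and 144 in the CD8 WT control, 462, 401 and 333 in the KO control, 103, 147 and 163 in the WT lymphoma and 290, 371 and 273 in the KO lymphoma libraries. No KO library of either condition overlapped a WT library of any condition, with log2 fold changes of 1.48 ± 0.36 in controls (adjusted p = 0.121 by edgeR) and 1.20 ± 0.36 with lymphoma (adjusted p = 0.156 by edgeR). Without WT control 2, the highest of its group, the control difference was 1.96 ± 0.31 (adjusted p = 0.0268 by edgeR). Over all genes, fits without 1 library called 8 to 84 in controls, against 66 in the main fit. Klrc1 added to Klrc2 had 1.30 ± 0.39 in controls (adjusted p = 0.188 by edgeR). Klrc2 itself stood at 52.7, 195 and 186 in the CD8 WT control, 380, 263 and 274 in the KO control, 79.4, 104 and 111 in the WT lymphoma and 192, 277 and 111 in the KO lymphoma libraries, with its highest mean in the KO controls.

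Klrd1, the partner chain of both, did not share this order in CD8 libraries and stood at 174, 178 and 184 in the CD8 WT control, 152, 185 and 152 in the KO control, 145, 136 and 115 in the WT lymphoma and 61, 131 and 89.4 in the KO lymphoma libraries. Controls of the genotypes overlapped at -0.10 ± 0.22, with an interval from -0.58 to 0.39 (adjusted p = 0.875 by edgeR). The libraries of tumour-bearing KO mice overlapped those of WT mice as well, with KO lymphoma 1 lowest (-0.48 ± 0.22, adjusted p = 0.283 by edgeR). Klrk1 stood at 11.5, 47.7 and 50.6 in the CD8 WT control, 111, 95.2 and 79.4 in the KO control, 20.7, 25.4 and 33.1 in the WT lymphoma and 60.8, 88.5 and 33.2 in the KO lymphoma libraries. Its KO controls were above all other CD8 libraries but 1 of the KO lymphoma group. Klrg1 stood at 2.33, 8.79 and 8.09 in the CD8 WT control, 21.2, 16.7 and 9.98 in the KO control, 5.31, 2.18 and 6.41 in the WT lymphoma and 7.45, 13.1 and 3.69 in the KO lymphoma libraries, so that only the control groups were apart (1.32 ± 0.56, adjusted p = 0.312 by edgeR).

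The remaining receptors and the adaptor followed in CD8 libraries with wide spread. Klrb1b stood at 0.436, 4.17 and 2.66 in the CD8 WT control, 6.73, 4.99 and 7.19 in the KO control, 0.826, 1.93 and 3.09 in the WT lymphoma and 3.73, 8.92 and 5.42 in the KO lymphoma libraries, a range whose lowest value is 3 counts. Klrb1c stood at 10.8, 67.1 and 59.7 in the CD8 WT control, 93.3, 79.2 and 72.5 in the KO control, 20.1, 25.8 and 30.2 in the WT lymphoma and 59.8, 81.3 and 29.4 in the KO lymphoma libraries, and Klre1 at 9.02, 41 and 49.2 in the CD8 WT control, 51.4, 68 and 59.5 in the KO control, 17.6, 21.2 and 22.2 in the WT lymphoma and 41.2, 60.8 and 26.2 in the KO lymphoma libraries. For these the WT control spread was set by WT control 1, which lay at 10.8 CPM for Klrb1c and 9.02 for Klre1. Ncr1 stood at 1.31, 13.6 and 11.1 in the CD8 WT control, 27.1, 18.2 and 11.1 in the KO control, 4.13, 4.37 and 6.98 in the WT lymphoma and 17.4, 28.3 and 9.73 in the KO lymphoma libraries, and 1 WT control was above the lowest KO control. Tyrobp stood at 6.84, 43.3 and 35.9 in the CD8 WT control, 72, 55.5 and 55.9 in the KO control, 34.7, 45 and 88.9 in the WT lymphoma and 116, 92.1 and 98.4 in the KO lymphoma libraries. Its lowest library was WT control 1 and its 3 highest were those of KO lymphoma, so that it alone of the 10 had its highest CD8 mean there.

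In CD8 KO controls the effector and memory genes had 6 of 20 risen and none fallen, led by Tbx21 (1.57 ± 0.18), Gzmm (2.30 ± 0.26) and Il2rb (1.21 ± 0.18), with a median of 1.27. Tbx21 and Gzmm kept their calls without any 1 library, and Il2rb in 1 of 6 such fits. Of the 16 NK cell markers 1, Il2rb, rose, with a median of 0.98 and sums of 1000 to 1290 CPM in WT and 2180 to 2430 in KO controls. Without Il2rb, Txk and Car2 the sums were 189 to 465 and 665 to 864 CPM. Myeloid sums were 286 to 863 and 892 to 1020 CPM, B cell sums 39.9 to 450 and 196 to 258 CPM, and no gene of either list passed. Summed Y-linked genes were 54.7 to 178 CPM in WT and 2.79 to 66.5 in KO controls. With their score as a covariate 14 genes passed over all genes, against 66 without it. The part of all these markers in the CD8 values was not tested.

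With lymphoma, none of the 10 genes passed in KO against WT in CD4 (edgeR, 0% of all genes) or CD8 libraries (0.245% of all genes). In CD4 libraries 5 had an unadjusted p under 0.05 (1390 of all 12808 genes), DESeq2 called 1 (85 over all genes) and limma voom 0 (81). In CD8 libraries these numbers were 4 (2275 of all 12650 genes), 2 (531) and 0 (22). KO libraries were above WT libraries without overlap for 5 genes in CD4 (12.9% of all genes) and 6 in CD8 (21.6%), with medians of 0.89 and 1.14. Of the 10, Ncr1 had the largest log2 fold change in both, at 2.02 ± 0.43 in CD4 (adjusted p = 0.236 by edgeR) and 1.86 ± 0.67 in CD8 libraries (adjusted p = 0.199 by edgeR). The 16 NK cell markers summed to 689 to 923 CPM in WT and 1010 to 1150 in KO libraries of CD4, and to 1060 to 1230 and 1570 to 2250 in CD8. Without Il2rb, Txk and Car2 these were 133 to 196 and 287 to 401 in CD4, and 259 to 322 and 442 to 820 in CD8. Car2 alone stood at 101, 25.1 and 345 CPM in CD4 KO lymphoma. Whether NK cells account for the Ncr1 values was not tested.

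**Figure D3:**
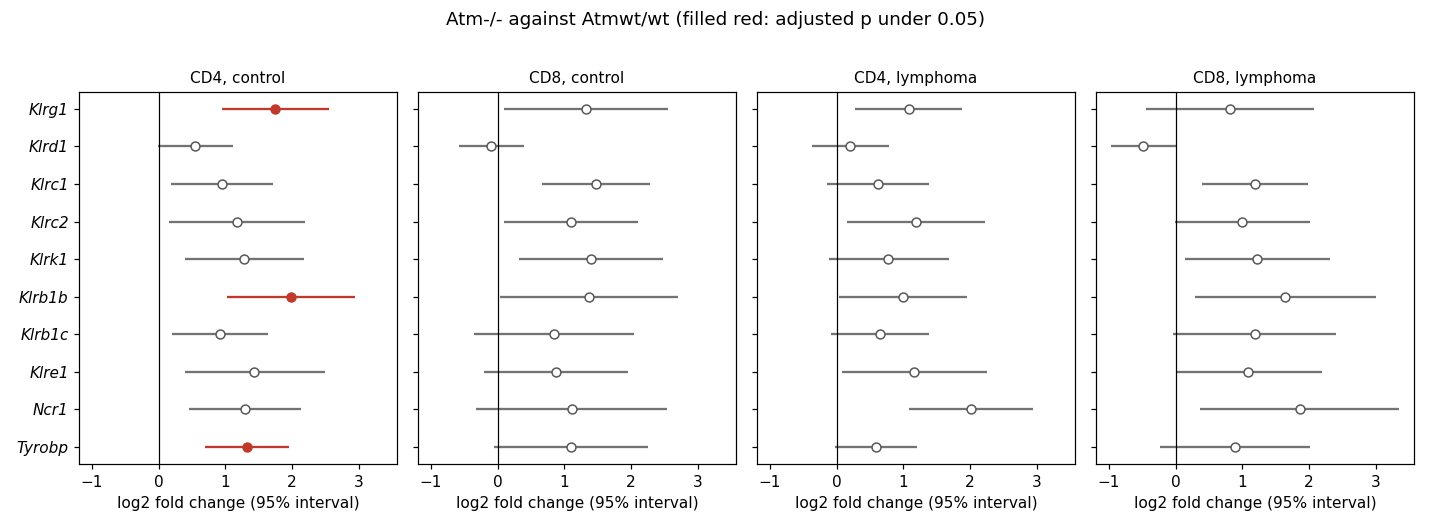
Log2 fold change of KO over WT libraries with its 95% interval for each gene (rows) in 4 settings (panels), filled red where the adjusted p was under 0.05. Points lie right of 0 in all 4 panels except for Klrd1 in CD8 libraries, and 3 genes pass, all in CD4 controls.

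The question of whether lymphoma changed these genes within a genotype gave no gene past the threshold in any of 4 comparisons by edgeR. Over all genes 1.69% passed in CD4 WT, 0% in CD4 KO, 1.42% in CD8 WT and 2.18% in CD8 KO libraries. The members past an unadjusted p of 0.05 numbered 5, 8, 0 and 1 in that order. Over all genes 1943, 1953, 2256 and 3448 were past it, of 12808 tested in CD4 and 12650 in CD8 libraries. DESeq2 called 2, 2, 0 and 1 members, and limma voom 0, 1, 0 and 1. Over all genes DESeq2 called 678, 343, 799 and 1499, and limma voom 269, 711, 821 and 386. The medians of the members were -0.61, -1.03, -0.47 and -0.50. In CD4 KO libraries 8 genes were lower in every lymphoma library than in every control, which 18.9% of all genes were in 1 direction or the other. Those 8 were all but Klrg1, with overlap, and Tyrobp, at 0.08 ± 0.28 with an interval from -0.53 to 0.69. Summed B cell markers were 532 to 687 CPM in those KO controls and 83.3 to 154 with lymphoma, and the 16 NK cell markers 1370 to 1500 and 1010 to 1150. Without Il2rb, Txk and Car2 the NK sums were 546 to 687 and 287 to 401 CPM. Their part in the lower values was not tested. Summed Y-linked genes ran from 68.1 to 189 CPM in CD4 WT controls and from 1.88 to 117 with lymphoma. In CD8 WT libraries these sums were 54.7 to 178 and 1.41 to 161. In KO libraries they were 1.25 to 57.7 and 0.986 to 51.5 in CD4, and 2.79 to 66.5 and 3.04 to 46.4 in CD8. The part of this imbalance was not tested.

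Klrb1c had a log2 fold change of -1.26 ± 0.33 there (adjusted p = 0.16 by edgeR) and Klrd1 of -1.0 ± 0.26 (adjusted p = 0.16 by edgeR). In CD4 WT libraries Ncr1 differed most, at -1.81 ± 0.44 (adjusted p = 0.0609 by edgeR), and without WT control 1 at -2.21 ± 0.33 (adjusted p = 0.0328 by edgeR). Over all genes, fits without 1 library called 31 to 294 in this comparison, against 216 in the main fit. Tyrobp went the other way, with all 3 lymphoma libraries above all controls (0.82 ± 0.29, adjusted p = 0.192 by edgeR). Of 16 myeloid markers 3 rose there, Cybb (1.66 ± 0.33), Spi1 (1.34 ± 0.28) and Mpo (4.78 ± 1.05), and their sum was 548 to 902 CPM in controls and 1330 to 2380 with lymphoma. These 3 lost their calls in 4 or 5 of 6 fits without 1 library. In CD8 KO libraries Klrd1 was lower in every lymphoma library (-0.80 ± 0.22, adjusted p = 0.0644 by edgeR), and without KO lymphoma 2, the highest of its group, the value was -1.16 ± 0.17 (adjusted p = 0.00415 by edgeR). Over all genes, fits without 1 library called 0 to 1861 in this comparison, against 276 in the main fit. Of 12 pan-T markers 2 fell in that comparison, Cd3e by 0.95 and Cd2 by 0.69 on the log2 scale (both calls were lost in 5 of 6 fits without 1 library), and the pan-T sum was 2920 to 3150 CPM in controls against 1260 to 2430 with lymphoma. Tyrobp was higher in all 3 CD8 KO lymphoma libraries (0.74 ± 0.51, adjusted p = 0.373 by edgeR), as were the summed myeloid markers, at 2140 to 5560 against 892 to 1020 CPM. The part of these markers was not tested.

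**Figure D4:**
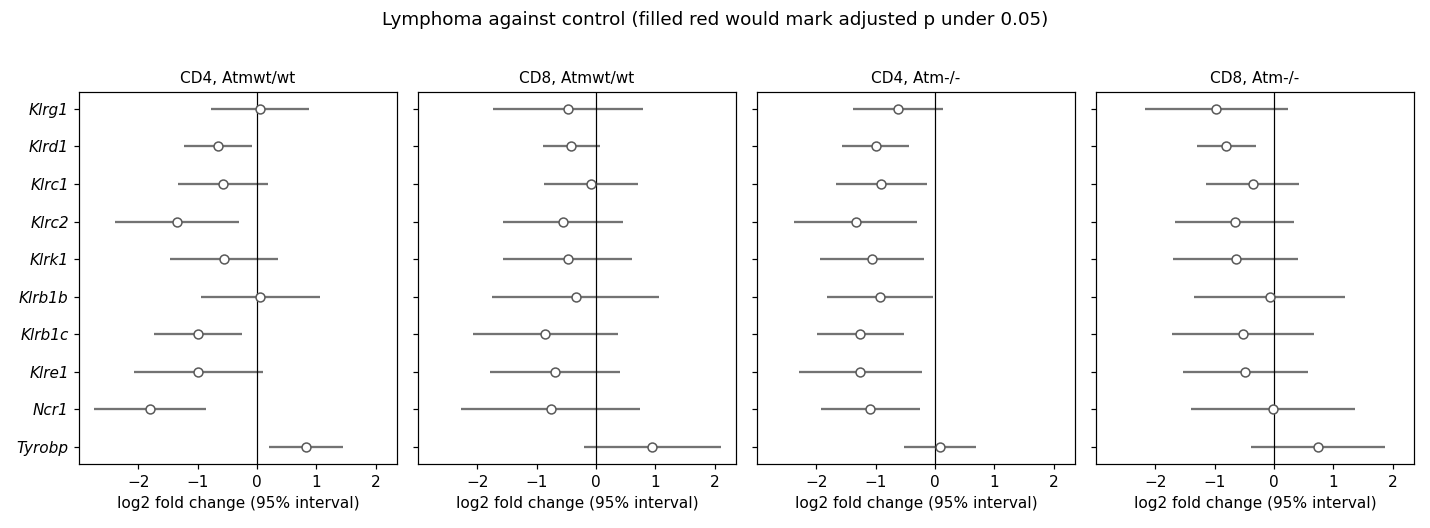
Log2 fold change of lymphoma over control libraries with its 95% interval for each gene (rows) in 4 settings (panels), where filled red would mark an adjusted p under 0.05. No gene passes, and Tyrobp lies right of 0 in all 4 panels while most others lie left of it.

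Between co-receptors, Klrd1 was the gene that separated CD8 from CD4 libraries in all 4 settings. It was 5.65-fold higher in CD8 libraries of WT controls (2.50 ± 0.27, adjusted p = 4.6e-06 by edgeR), 6.51-fold in WT lymphoma (2.70 ± 0.27, adjusted p = 3.82e-06), 3.5-fold in KO controls (1.81 ± 0.26, adjusted p = 0.000136) and 4.06-fold in KO lymphoma (2.02 ± 0.27, adjusted p = 7.18e-05). The lowest CD8 library, at 61 CPM, was above the highest CD4 library, at 52.7. Klrd1 passed without any 1 library in each setting. It was the only one of the 10 genes to pass in WT controls, where 3.48% of 13232 genes passed, and in WT lymphoma, where 2.54% did.

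In KO mice Klrc1 passed as well, with 4.95% of all genes passing in controls and 2.35% with lymphoma. Klrc1 was 2.56-fold higher in CD8 libraries of KO controls (1.36 ± 0.38, adjusted p = 0.0407 by edgeR) and 3.79-fold in KO lymphoma (1.92 ± 0.38, adjusted p = 0.00598 by edgeR). In both all CD8 libraries were above all CD4 libraries. The control call was lost without any 1 of the 6 libraries, with adjusted p from 0.0624 to 0.138. Added to Klrc2, the values were 0.89 ± 0.42 (adjusted p = 0.287 by edgeR) and 1.57 ± 0.43 (adjusted p = 0.0659 by edgeR). In WT lymphoma Klrc1 had 1.34 ± 0.38 (adjusted p = 0.0767 by edgeR) and in WT controls 0.87 ± 0.38 (adjusted p = 0.371 by edgeR), where the libraries overlapped.

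Since both libraries of a pool come from the same mice, a fit with the mouse pool as a block was also made. It called 4 of the 10 genes in KO lymphoma, adding Klrc2 (1.12 ± 0.20, adjusted p = 0.00446 by edgeR) and Klrk1 (1.26 ± 0.21, adjusted p = 0.00337 by edgeR). In WT lymphoma it called 3, adding Klrc1 (1.37 ± 0.24, adjusted p = 0.00551 by edgeR) and Klrc2 (1.34 ± 0.20, adjusted p = 0.00166 by edgeR). In KO controls it also called 3, adding Klrk1 (0.78 ± 0.20, adjusted p = 0.0299 by edgeR), and in WT controls Klrd1 alone. The block raised the calls over all genes as well, from 311 to 542 in KO lymphoma and from 336 to 457 in WT lymphoma. In KO controls they went from 655 to 1186 and in WT controls from 460 to 637. Klrg1 differed by -0.73 ± 0.52 in WT lymphoma, -0.66 ± 0.47 in KO controls and -0.98 ± 0.48 in KO lymphoma, where every CD8 library was below every CD4 library, and passed in no setting. In WT controls it was at -0.18 ± 0.51, with the other sign by limma voom.

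**Figure D5:**
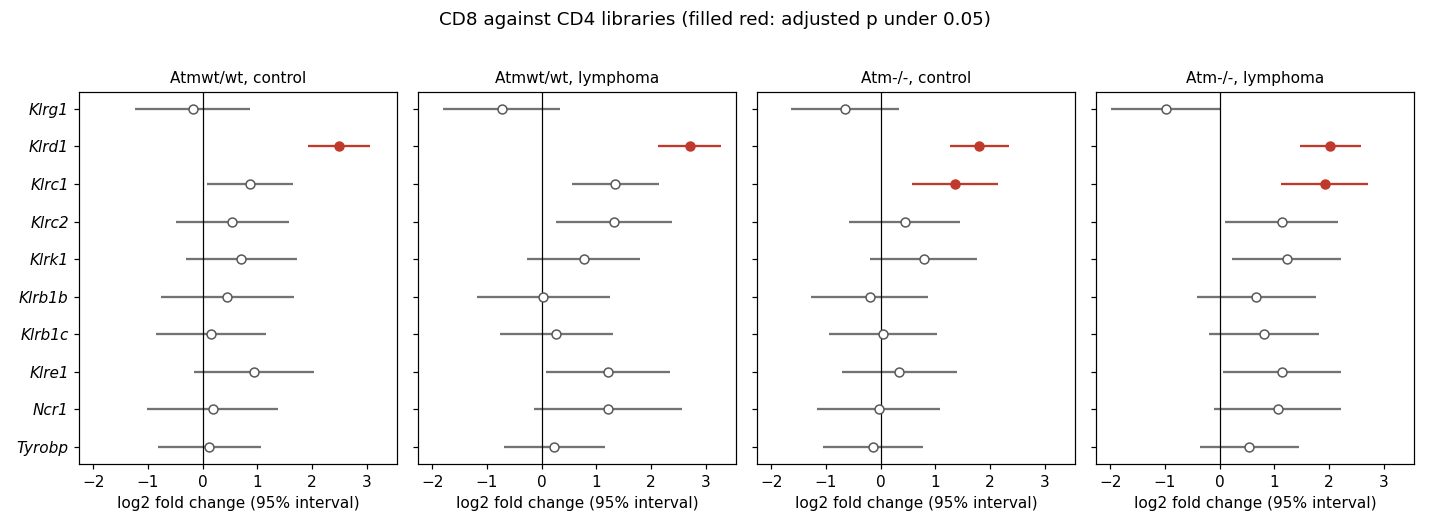
Log2 fold change of CD8 over CD4 libraries with its 95% interval for each gene (rows) in 4 settings (panels), filled red where the adjusted p was under 0.05. Klrd1 passes in all 4 panels, at 1.81 to 2.70, and Klrc1 in both KO panels.

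Tests of differences between these comparisons gave no gene of the 10 by edgeR, DESeq2 or limma voom. These tests had no member under an unadjusted p of 0.05 in any of 6, against 180 to 628 of all genes per test. They asked whether the response to lymphoma differed between genotypes in CD4 (0% of all genes) and CD8 libraries (0%), whether it differed between co-receptors in WT (0%) and KO mice (0%), and whether the genotype difference did in controls (0.0378%) and with lymphoma (0.0151%). The smallest unadjusted p belonged to Klrd1, whose genotype difference in controls in CD8 minus that in CD4 libraries was -0.69 ± 0.36, with an interval from -1.45 to 0.06. A difference of genotype past the threshold in CD4 and not in CD8 controls is thus not shown to differ between them.

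The order of the 8 group means shows which groups stand next to each other. Klrd1 ran from CD8 WT control (179 ± 5.21 CPM, mean ± SD, n = 3) through CD8 KO control (163 ± 18.9), CD8 WT lymphoma (132 ± 15.1) and CD8 KO lymphoma (93.9 ± 35.4) to CD4 KO control (49.7 ± 2.68), and then to the 3 other CD4 groups at 21.3 to 32.5. Of its 7 pairs of neighbours 4 overlapped. Klrc1 ran from CD8 KO control (399 ± 64.3) and CD8 KO lymphoma (311 ± 52) to CD4 KO control (165 ± 7.02), and the only neighbours without overlap were these last 2. For Klrg1 and Klre1 all 7 neighbouring pairs overlapped, and for the other genes 5 or 6. Within CD4, KO control had the highest mean for 9 of the 10 genes and WT lymphoma the lowest for 7. Within CD8 these counts were 8 and 8.

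Among the other 17 lectin-like receptor genes in the table, of 18 listed, few passed. In CD4 WT libraries Klra2 rose with lymphoma (1.46 ± 0.30, adjusted p = 0.032 by edgeR), from 4.17, 5.9 and 5.1 to 12.3, 10.1 and 21.6 CPM. In genotype comparisons none passed, with medians of 1.44 in CD4 and 0.89 in CD8 controls over the 10 and 12 genes tested. Between co-receptors 4 calls were made. Klra1 (1.74 ± 0.45) and Klra3 (1.79 ± 0.47) were higher in CD8 libraries of WT controls, and Klra6 in those of WT lymphoma (3.29 ± 0.68) and KO controls (2.59 ± 0.61). Fits without 1 library lost the call of Klra2 in 4 of 6, of Klra1 and Klra3 in 5, and of Klra6 in 1 and 3. The summed level of the 17 genes was 25.9 to 97.2 CPM in CD4 WT and 131 to 153 in CD4 KO controls.

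Of 16 listed ligand genes 12 were in the table and 5 were tested, and 2 passed in some comparison. H2-T23, which encodes Qa-1, the ligand of the CD94 receptors, stood at 49.8, 64.6 and 86.5 CPM in CD8 WT controls and at 25.5, 37.8 and 24.4 in CD8 KO controls. With lymphoma it was at 103, 98.4 and 75.1 in CD8 WT and at 35.2, 40.6 and 37.4 in CD8 KO libraries. No KO library overlapped a WT library, and H2-T23 fell by 1.16 in controls (SE 0.22, adjusted p = 0.0452 by edgeR) and by 1.28 with lymphoma (SE 0.22, adjusted p = 0.0431 by edgeR) on the log2 scale. In CD4 libraries it ranged from 34.4 to 155 CPM with overlap of the genotypes and passed in no comparison. The control call was lost in 5 and the lymphoma call in 4 of the 6 fits without 1 library, and each in 3 of 9 other settings, with adjusted p up to 0.24. H2-T23 belongs to a multigene family, and how its reads were divided among relatives is uncertain.

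Cdh1, which encodes E-cadherin, a ligand of KLRG1, rose in CD8 KO controls (2.00 ± 0.37, adjusted p = 0.0452 by edgeR), from 6.98, 20.5 and 16.3 to 51.4, 54.2 and 67.5 CPM. The call was lost in 5 of 6 fits without 1 library. Of the 18 adaptors and signalling genes Fcer1g, the FcRγ chain, rose in CD4 KO controls (1.40 ± 0.25, adjusted p = 0.0278 by edgeR) and in CD4 WT lymphoma (1.12 ± 0.25, adjusted p = 0.0436 by edgeR). Its CPM were 12.1, 20 and 22.9 in CD4 WT controls, 54.9, 43.3 and 53.2 in KO controls and 29.8, 41.6 and 53.1 in WT lymphoma, so that all WT lymphoma and KO control libraries were above all WT controls. Each call was lost in 5 of 6 fits without 1 library. Hcst (DAP10) was higher in CD8 than in CD4 libraries of KO controls (0.73 ± 0.19, adjusted p = 0.0256 by edgeR), and Sh2d1a lower in KO lymphoma (-0.99 ± 0.23). Plcg1 fell by 0.95 and Cd247 by 0.76 on the log2 scale in CD8 KO lymphoma against control. Hcst, Plcg1 and Cd247 each lost the call in 5 of 6 fits without 1 library, and Sh2d1a in 3.

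Of 12 other activating and inhibitory receptors of NK cells measured, of 14 listed, 11 were tested. In CD4 KO controls Fcgr3 alone rose, and in CD8 controls none passed. Between co-receptors Crtam and Cd160 were higher in CD8 libraries in all 4 settings, Crtam by 2.31 to 2.70 and Cd160 by 1.46 to 1.83 on the log2 scale. Slamf7 was higher in KO controls (1.0 ± 0.22) and KO lymphoma (1.45 ± 0.23). Of the 20 effector and memory genes 7 to 9 were higher and 0 to 2 lower in CD8 libraries per setting, with Ly6c2, Gzmm, Eomes and Nkg7 higher in each. Others of that list did not follow. Prdm1 was lower in CD8 libraries of WT controls (-1.25 ± 0.27), WT lymphoma (-1.25 ± 0.27) and KO lymphoma (-1.01 ± 0.26). Fits without 1 library lost these calls in 2, 3 and 5 of 6. Fasl was lower in CD8 libraries of WT controls (-1.04 ± 0.24, adjusted p = 0.0162 by edgeR), a call lost in 3 of 6 fits without 1 library. Prf1 did not pass in WT controls.

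Likeness between genes was described by Pearson's r of log2 CPM over the 12 libraries of a co-receptor, which share mice, depth and groups. Leaving aside Klrd1 and Tyrobp, the other 8 genes had r of 0.684 to 0.981 with each other in CD4 and 0.715 to 0.988 in CD8 libraries. Every lower r involved Klrd1 or Tyrobp, so these high ranges follow from leaving them aside. Tyrobp had r of 0.027 to 0.834 with the other 9 in CD4, and of -0.579 to 0.792 in CD8 libraries. Klrd1 had r of 0.027 to 0.869 with the other 9 in CD4, and of -0.579 to 0.196 in CD8 libraries. In CD4 libraries Klrd1 was at 0.027 with Tyrobp, 0.356 with Klrg1 and 0.544 with Klrb1b. With Klrc1, Klrc2, Klrk1, Klrb1c, Klre1 and Ncr1 Klrd1 was at 0.774 to 0.869 there. Its nearest genes in CD8 libraries were Fam189b (0.974) and Cd96 (0.959), and in CD4 libraries Edaradd (0.947) and Snn (0.942). Tyrobp was nearest to Csf1r (0.991), the receptor of a macrophage growth factor, and Hip1 (0.988) in CD8, and to Myo1f and Tnfsfm13 (both 0.975) in CD4 libraries.

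The granule protease gene Gzma was the nearest or next nearest gene to Klrc2 (0.987), Klrk1 (0.994), Klrb1c (0.987) and Ncr1 (0.971) in CD8, and to Klrc1 (0.976) and Klrc2 (0.989) in CD4 libraries. In CD8 libraries Klrc2 and Klrk1 were at 0.988, Klrc2 and Klrb1c at 0.985, Klrk1 and Ncr1 at 0.951, and Klre1 was nearest to Klrb1c (0.978) and Adamts14 (0.976). Klrc1 was nearest to Fasl (0.98) and 5430427O19Rik (0.953) there. Klrb1b was nearest to 5430427O19Rik (0.946) and Klrc1 (0.943), and Klrg1 to Nradd (0.922) and Klrk1 (0.909). In CD4 libraries the nearest gene to Klrc2 (0.99) and to Ncr1 (0.972) was Klri2, and the nearest to Klrc1 was Klrc2 (0.981). The genes nearest to Klrk1 were Itga2 (0.977) and Cma1 (0.973), and those nearest to Klrb1c were Klrc2 (0.965) and Klra4 (0.962). Klre1 was nearest to Serpinb9 (0.964) and Klrb1a (0.962), Ncr1 next to Dhrs7 (0.957), Klrb1b to Nrp1 (0.937) and Osbpl3 (0.928), and Klrg1 to Ncf4 (0.94) and S1pr5 (0.932).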

How the data were processed

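The authors deposited estimated counts per gene and library, all whole numbers except 2 cells that held a letter, and named no scaling. The 2 genes with such a cell were dropped, which left 34111. Salmon 0.11.3 is named in the submitters' processing notes, which also name the human build GRCh38 for these mouse samples without giving its role. Libraries came from a kit that reads transcript 3′ ends, per the labels' protocols. Positions here are from GENCODE M21 on GRCm38, and promoters from RefSeq.

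Each library was 1 replicate, n = 3 per group. Genes were filtered with filterByExpr (minimum count 10, total 15) in edgeR 4.0.16, which kept 12808 genes for CD4 libraries, 12650 for CD8 and 13232 for both together. All 10 members passed this filter in each. Counts were scaled by TMM (factors 0.903 to 1.08 in CD4 and 0.972 to 1.04 in CD8) and tested with the robust quasi-likelihood test, with Benjamini-Hochberg adjustment over all genes at 0.05. CD4 and CD8 libraries were fitted apart, and comparisons between them in 1 fit of 24. Errors after ± are standard errors on the log2 scale unless named SD, and intervals are 95%. The residual degrees of freedom were 8 and 16. CPM are unscaled by TMM, and log2 CPM used a prior count of 2.

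Libraries of the same mice had residual correlations of -0.018 to 0.525 over 12 pairs, 10 of them over 0.1, and the labels name the same mice. Libraries that share only a number had -0.212 to 0.322 over 36 pairs. The alternatives were DESeq2 size factors, no filter, limma voom (limma 3.58.1, sample weights), DESeq2 1.42.0, at least 30 counts in 3 libraries, a Y-linked score, blocks, all 24 libraries in 1 fit and each library left out. After the values were seen, pool 1 of the WT controls was left out, and Klrc2 was added to Klrc1 and Klrb1c to Klrb1b. Other genes that share 3′ ends with these (Klrc3, Gm44511 and Klrb1a) were not added. The code was tested on simulated data. Equal numbers of 2-fold and 4-fold changes were put into CD4 and CD8 WT lymphoma against control and CD8 against CD4 in WT controls. The 2-fold changes recovered numbered 36, 48 and 43 in that order, and the 4-fold changes 83, 75 and 84. Most 2-fold changes were thus missed, so a member that did not pass may still differ by that much.

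The members and gene lists were chosen with earlier results of these data known. All members are named. From each other list up to 3 genes per comparison that passed, with the smallest p, could be named, and for each member the 2 genes with the highest r. Not every gene the rule allows is printed, and B cell genes are given by their sums. Some genes that did not follow the rest of their list, such as Prdm1, Fasl and Txk, were named beyond this rule.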

Additional observations from a re-analysis of the deposited data

How the results depend on the processing

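Of the 18 counts of genes called among the 10, those of the 6 tests of differences, of CD8 WT lymphoma against control and of CD8 against CD4 in WT controls stayed at their value in all settings run. In CD4 control KO against WT, where 3 were called, all 24 libraries in 1 fit gave 0, DESeq2 gave 6 and limma voom 9, and fits without 1 library 0 to 5. The fit of 24 used the spread of all groups and called 285 genes over all, against 257 in the main fit. The cause of these shifts was not tested. DESeq2 gave 2 in CD4 KO lymphoma against control (voom 1), 1 in CD4 lymphoma KO against WT, 2 in CD4 WT lymphoma against control, 2 in CD8 control KO against WT (voom 1), 1 in CD8 KO lymphoma against control (voom 1) and 2 in CD8 lymphoma KO against WT, each against 0 in the edgeR test. In WT lymphoma CD8 against CD4 the count of 1 became 2 by DESeq2, 2 by voom and 3 with the mouse pool as a block. In KO lymphoma CD8 against CD4 the 2 became 4 with that block. Over all genes the block took the calls from 336 to 457 in WT lymphoma and from 311 to 542 in KO lymphoma. In WT lymphoma DESeq2 called 429 over all genes and limma voom 656. In KO control CD8 against CD4 the 2 became 1 with no filter on low counts and 1 in every fit without 1 library, the call of Klrc1 being lost. The pool block changed no other count by over 1.5 times.

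Fits without 1 library gave 0 to 1 in CD4 WT lymphoma (1 without WT control 1, Ncr1), CD8 control KO against WT (1 without WT control 2, Klrc1), CD8 KO lymphoma (1 without KO lymphoma 2, Klrd1) and CD8 lymphoma KO against WT (1 without KO lymphoma 2, Klrd1 at -0.84 ± 0.17, adjusted p = 0.0163 by edgeR), and 0 in the other comparisons with a count of 0. Over all genes such fits called 31 to 294 in CD4 WT lymphoma and 8 to 84 in CD8 control KO against WT. They called 0 to 1861 in CD8 KO lymphoma and 1 to 978 in CD8 lymphoma KO against WT. The main fits called 216, 66, 276 and 31 in that order. With the replicate number as a block, though it marks no shared mice within a co-receptor, CD4 control KO against WT had 2, Klrb1b being lost (1.98 ± 0.46, adjusted p = 0.0569 by edgeR), and no other count changed. Over all genes, DESeq2 and limma voom called 789 and 1480 in CD4 control KO against WT (257 by edgeR), 343 and 711 in CD4 KO lymphoma against control (0), 85 and 81 in CD4 lymphoma KO against WT (0), 375 and 365 in CD8 control KO against WT (66) and 799 and 821 in CD8 WT lymphoma against control (180). DESeq2 called 678 in CD4 WT lymphoma against control (216), 1499 in CD8 KO lymphoma against control (276) and 531 in CD8 lymphoma KO against WT (31), and voom 1966 in KO control CD8 against CD4 (655), where the pool block called 1186.

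No gene called among the 10 changed sign under any alternative. Leaving out both libraries of WT control pool 1, added after the values were seen, left Klrd1 called in WT controls. Low counts of Klrb1b, down to 0.436 CPM, limit its precision.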
